A study of Homo sapiens with 12 samples.

Results

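The genes described here are 39 interferon-stimulated genes, listed by name and not by any value, though with earlier results of these data known. Peaks were taken at their promoters (start sites extended by 1 kb in both directions) and in the rest of their loci (gene bodies extended by 5 kb), among 32491 genes, protein-coding or lncRNA, that had a start site. All 39 were found in the gene annotation, on 16 chromosomes, with 52 start sites. DDX58 is listed there as RIGI. Accessible DNA, cut and tagged by the transposase Tn5, had been sequenced from bulk nuclei (ATAC-seq) of 3 human lines of acute myeloid leukaemia (AML). The MLL1 (KMT2A) gene is rearranged in MOLM13 and MV4-11, and OCI-AML3 carries mutant NPM1. The groups were MOLM13, MV4-11 and OCI-AML3 cells given 500 nM VTP50469 for 16 h, and control cells of the same lines. VTP50469 is a menin inhibitor, which blocks the binding of the adaptor protein menin to MLL1. There were 2 libraries in each of the 6 groups, and cells had been frozen before nuclei were taken. MV4-11 was grown in IMDM and the other lines in RPMI, so line and medium cannot be told apart.

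Interferons bind receptors that signal through the JAK kinases. These phosphorylate STAT proteins, and STAT2 joins IRF9 in the complex ISGF3. ISGF3 binds the interferon-stimulated response element (ISRE) in the promoters of many genes, whose products sense, bind and destroy viral RNA or block the release of virus. Some of these promoters are open in unstimulated blood cells and others open only after interferon.

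Each library came as its own list of called peaks, with 68674 to 145572 peaks and a median of 9 to 13 reads over a peak summit. The MV4-11 libraries held the most (115819 to 145572) against 79426 to 103111 in MOLM13 and 68674 to 94532 in OCI-AML3. The weakest peaks of a library had 3 to 5 summit reads, so a promoter without a peak was not detectable at this depth and need not be closed. In a bulk sample, opening in fewer cells and weaker opening in each cell cannot be told apart. Of 7 myeloid marker promoters, 4 (SPI1, PTPRC, LYZ, CEBPA) were called in all 12 libraries and none was absent from all. Of the other myeloid markers, MPO and CSF3R were called in 8 libraries and CD33 in 6, with MPO and CD33 called in no OCI-AML3 library. Of the defining markers of T cells (5), B cells (5), erythroid (4) and epithelial cells (3), none was called in all 12, and 2, 2, 3 and 2 were called in none. The B cell markers PAX5 and CD79A were called in 8 and 7 libraries, each in all 4 of MV4-11. Separate cultures for the replicates are not stated in the labels, and p-values therefore measure only the spread between these libraries, which may be technical.

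The ISRE was common in these promoters, and the sequences printed here show where it lies. Promoter sequences from 250 bases before to 50 after a start site (RefSeq, GRCh38.p14) were held for 32 of the 39 genes. The ISRE core (GAAA, any 2 bases, GAAA, or on the other strand TTTC, any 2 bases, TTTC) occurred in 22 of the 32 (68.8%), against 4.16% of 15812 protein-coding genes. The GAS motif TTCNNNGAA, which reads the same on both strands and is an element of the interferon gamma response, occurred in 9 of the 32 (28.1%), against 8.97% of genes. The ETS-IRF composite (GGAA, any 2 bases, GAAA, on either strand), which can overlap an ISRE core, occurred in 9 (28.1%), against 3.37%. It was held together with the ISRE core by 6 genes, in RSAD2 at different start sites. A match is a description of the letters and not a measured binding site.

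The 6 genes shown first have the highest accessibility ranks among those called in every library that hold the ISRE core before a start site. Ranks are those of the strongest promoter peak of a gene, which for RSAD2 lies at its other start site, without the core. IFI44 and IFI44L follow as a pair of neighbouring genes with few or no calls, chosen after their values were seen. Each stretch ends at the base before the start site, and capitals mark the ISRE core.
HERC5: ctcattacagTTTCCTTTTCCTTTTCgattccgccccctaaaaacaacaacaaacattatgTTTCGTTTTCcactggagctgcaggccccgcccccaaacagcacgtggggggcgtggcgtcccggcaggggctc
IFI6: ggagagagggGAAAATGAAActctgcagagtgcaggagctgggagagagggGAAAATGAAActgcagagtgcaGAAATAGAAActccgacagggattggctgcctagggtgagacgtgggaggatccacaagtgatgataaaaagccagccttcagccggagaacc
ISG20: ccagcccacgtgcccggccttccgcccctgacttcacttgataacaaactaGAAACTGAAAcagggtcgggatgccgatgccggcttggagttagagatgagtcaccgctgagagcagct
SAMD9: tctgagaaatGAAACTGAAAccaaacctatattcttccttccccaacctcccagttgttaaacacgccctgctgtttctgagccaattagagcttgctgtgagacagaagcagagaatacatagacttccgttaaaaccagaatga
DDX60: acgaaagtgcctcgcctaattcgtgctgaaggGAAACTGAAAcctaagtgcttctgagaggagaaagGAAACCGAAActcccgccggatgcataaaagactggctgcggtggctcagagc
RSAD2: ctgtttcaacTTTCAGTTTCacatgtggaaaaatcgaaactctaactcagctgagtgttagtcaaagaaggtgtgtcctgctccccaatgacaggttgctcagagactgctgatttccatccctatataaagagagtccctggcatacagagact
IFI44: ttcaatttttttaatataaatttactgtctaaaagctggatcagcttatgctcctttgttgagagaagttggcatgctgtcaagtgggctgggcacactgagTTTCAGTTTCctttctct
IFI44L: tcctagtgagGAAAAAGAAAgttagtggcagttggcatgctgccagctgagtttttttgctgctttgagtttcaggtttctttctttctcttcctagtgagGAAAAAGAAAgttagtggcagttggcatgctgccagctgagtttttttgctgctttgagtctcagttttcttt

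The sequences are on the strand of the gene. HERC5 is chr4:88456984-88457118 (plus strand), IFI6 chr1:27672193-27672358 (minus), ISG20 chr15:88638896-88639015 (plus) and SAMD9 chr7:93117980-93118125 (minus). DDX60 is chr4:168318753-168318872 (minus), RSAD2 chr2:6877622-6877776 (plus), IFI44 chr1:78649669-78649788 (plus) and IFI44L chr1:78620274-78620447 (plus). The RSAD2 stretch lies before the downstream of its 2 start sites, whose promoter was called in 11 libraries, while the upstream one was called in all 12. IFI6 and HERC5 each hold 3 copies of the core, as do IFIH1 and IFIT5, whose sequences are not printed. IFIT3, with hits at more than 1 start site, holds 4. Of the 41 ISRE hits in these promoters, 31 lay within 150 bases before a start site.

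Of the 41 copies, 34 lay inside a called peak in at least 1 library. In 12 of the 22 genes with the core (54.5%) a copy lay inside a called peak in all 12 libraries: BST2, DDX60, EIF2AK2, HERC5, IFI6, IFIH1, IFIT3, IFIT5, ISG15, ISG20, PARP9 and SAMD9. Among 636 other protein-coding genes with the core, 143 (22.5%) had a copy inside a peak in all 12. A gene counts by the copy with the most libraries. Promoters of the 39 genes were also called in all 12 libraries more often in general (30 of 39, against 54.4% of protein-coding genes). The part of this in the contrast was not tested. In 6 of the 22 genes a copy was inside a peak in some libraries: PARP14 in 11, IFIT1 and RSAD2 in 8, MX1 and OAS3 in 5, and IFI44 in 4. In CXCL10, GBP1, IFI27 and IFI44L no copy was inside a peak in any library. Where a copy was inside a peak, its middle lay a median of 39 bp from the nearest summit. The nearest copies were those of ISG20 (median 9 bp over 12 libraries), IFI44 (9.5 bp over the 4 MV4-11 libraries) and HERC5 (11.5 bp over 12).

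In these AML cells most of the promoters were called in control and treated cells alike. A promoter peak was called in all 12 libraries for 30 of the 39 genes, where 54.4% of protein-coding genes had one. GBP1 and IFI44L had none in any library (21.2% of protein-coding genes), and 7 genes were called in 1 to 11 libraries (24.4%). By library 32 to 36 of the genes had a peak, against 61.9% to 68.7% of protein-coding genes. By line, 32 were called in all 4 libraries of MOLM13, 34 in MV4-11 and 31 in OCI-AML3, against 59.2%, 63.6% and 57.8% of protein-coding genes. With every list reduced to its 68670 strongest peaks, an alternative chosen after seeing the data, 29 genes were called in all 12 libraries, against 52.3% of protein-coding genes. PARP14 was the gene that dropped out, being called in 10.

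**Figure D1:**
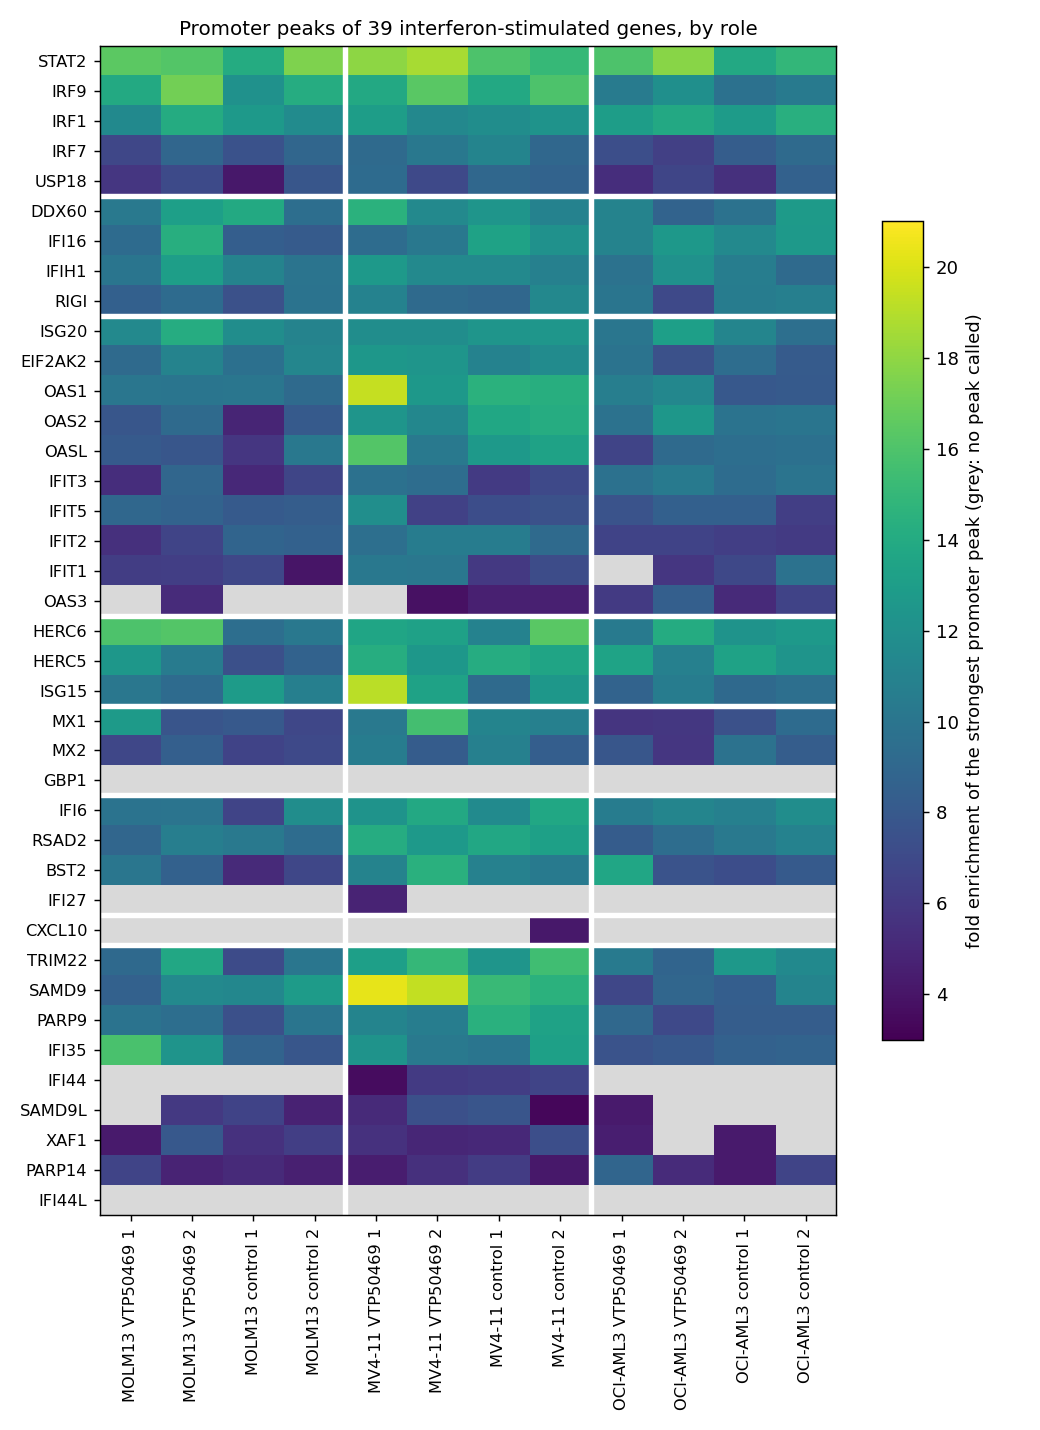
Fold enrichment of the strongest promoter peak of each of the 39 genes (rows, grouped by role) in the 12 libraries (columns, by line with VTP50469 left of control); grey marks no called peak. GBP1 and IFI44L are grey throughout, IFI44 has values in MV4-11 alone, and STAT2 has the highest median (16.1).

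The signal transducers and regulators of the pathway were called in every library. The value used is the fold enrichment of the strongest peak of a promoter, that is, the reads over its summit against the local background of the library, with 1 read added to each. All 5 genes of this group (STAT2, IRF9, IRF1, IRF7, USP18) were called in all 12. STAT2, a subunit of ISGF3, had the highest median fold of the 39 genes, 16.1 (13.8 to 18.6), and was the only one whose median rank was above the 90th percentile (92.2nd) of the 13276 promoters called in all 12 libraries. IRF9, the DNA-binding subunit of the same complex, followed with a median fold of 13.9 (9.69 to 17.2), and IRF1, a transcription factor of the interferon gamma response, had 12.8 (11.4 to 14.3). IRF7, which drives interferon alpha genes, was low, with a median fold of 8.92 and a median rank at the 24th percentile. USP18, which removes ISG15 from proteins and dampens receptor signalling, was lower still, with 7.01 and the 14.8th percentile. Over the 30 genes called throughout, the median rank was at the 48.4th percentile, and 14 of the 30 were above the middle.

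All 4 sensors of foreign nucleic acid were called in every library. The median folds were 11.3 for DDX60, 11.2 for IFI16, a DNA sensor, 11.0 for IFIH1, the RNA sensor MDA5, and 9.57 for RIGI, which recognises RNA with a 5′ triphosphate. The genes of the ISG15 system were called throughout as well. HERC6 and HERC5, E3 ligases of which the human HERC5 attaches ISG15, had medians of 12.985 (9.53 to 16.4) and 12.53 (7.40 to 14.2), among the 5 highest ranks. ISG15 itself, a ubiquitin-like modifier, had a median of 10.4 and a range of 8.73 to 19.2.

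The RNA-binding and RNA-degrading effectors were called in all 12 libraries for 8 of 10 genes. The OAS enzymes make 2′-5′ oligoadenylates that activate RNase L, and 3 of them lie side by side on chromosome 12. OAS1 and OAS2 had median folds of 10.4 and 9.92 and were called in every library, as was the related OASL with 9.56. OAS3, between them, had a median of 5.18 over the 8 libraries in which it was called. Its folds were 6.08 and 8.46 in treated OCI-AML3 and 5.16 and 6.63 in control OCI-AML3, so that this was the line with all 4 libraries. In MV4-11 it had 3.84 in 1 treated library and 4.55 and 4.60 in the controls, and in MOLM13 it had 5.21 in 1 treated library and no peak in the controls. After reduction to equal peak numbers it was called in 4 OCI-AML3 libraries, 1 MOLM13 library and no MV4-11 library.

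The IFIT proteins bind viral RNA at its 5′ end, and their genes form a cluster on chromosome 10. IFIT3 had a median fold of 9.13 (25.4th percentile), IFIT5 of 8.20 (25.4th) and IFIT2 of 7.65 (20.7th). IFIT1 had 6.82 and no rank, since it was called in 11 libraries and had no peak in 1 treated OCI-AML3 library. The IFIT5 promoter is shared with LIPA, which starts within 1 kb. EIF2AK2, the kinase PKR, and ISG20, an RNA exonuclease, had medians of 10.4 and 11.8.

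The GTPases differed among themselves. MX1 and MX2, which trap viral nucleocapsids, were called in all 12 libraries with medians of 8.63 and 8.28, that of MX2 at the 18.8th percentile. GBP1, a guanylate-binding protein of the interferon gamma response, had no promoter peak in any library, although 1 peak was called elsewhere in its locus in 7 libraries, all 4 of MV4-11 among them. Of the membrane and mitochondrial proteins, IFI6, RSAD2 and BST2 were called throughout with medians of 11.4, 10.5 and 9.33. The RSAD2 promoter peak was strongest at the start site that RSAD2, the enzyme viperin, shares with CMPK2 (median 10.5), and the start site further downstream had a median of 6.29 in 11 libraries. IFI27 had 1 peak, of 4.78, in 1 treated MV4-11 library, near the outer edge of the window. CXCL10, a chemokine that draws T cells, had 1 peak, of 4.17, in 1 MV4-11 control.

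Of the 9 other effectors, 5 were called in all libraries. TRIM22 had a median of 11.98, SAMD9 of 11.4, PARP9 of 9.65, IFI35 of 9.37 and PARP14, an ADP-ribosyltransferase, of 5.18, the lowest rank of the 30 (2.7th percentile). PARP9 shares its promoter with DTX3L, its partner protein. SAMD9L is the neighbour and paralogue of SAMD9 on chromosome 7, with a median of 5.58 over the 8 libraries in which it was called. It had a peak of 6.01 in 1 treated MOLM13 library and of 6.65 and 4.74 in the MOLM13 controls, 5.14 and 7.42 in treated and 7.75 and 3.30 in control MV4-11, and 4.33 in 1 treated OCI-AML3 library. XAF1, which binds the apoptosis inhibitor XIAP, had a median of 5.29 in 10 libraries and lacked a peak in 1 treated and 1 control OCI-AML3 library. IFI44 was called in the 4 MV4-11 libraries alone, with 3.60 and 6.04 in treated and 6.25 and 6.72 in control cells. It was the only one of the 39 called in all 4 libraries of 1 line and none of another, a pattern of 1.92% of protein-coding promoters for MV4-11 against MOLM13 and 2.22% against OCI-AML3. No gene was called in all 4 libraries of MOLM13 and none of MV4-11 (0.414%) or OCI-AML3 (0.884%), or in all 4 of OCI-AML3 and none of MOLM13 (1.2%) or MV4-11 (0.64%). With equal peak numbers it was called in 3 of the 4 MV4-11 libraries.

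The summits were close to the start site. The strongest summit lay within 150 bp of a start site in 305 of 403 gene and library pairs (75.7%), against 63.8% over all protein-coding genes, and the median distance was 78 bp against 96 bp. IFIT1 was an exception that differed by line. In MOLM13 its strongest summit was 45 and 11 bp upstream of the start site in treated cells and 41 and 54 bp upstream in controls. In MV4-11 it was 601 and 563 bp downstream in treated cells and 568 and 515 bp in controls, and in OCI-AML3 it was 570 bp downstream in 1 treated library and 597 and 604 bp in controls. In MOLM13 the downstream site was a separate region, called in treated cells alone and in both of their libraries (chr10:89393112-89393331, −log10 q of 5.11 and 3.55). IFIT3 has 2 start sites. At the upstream one (chromosome 10, base 89327997) it had a peak of 4.64 in 1 treated MOLM13 library and none in the MOLM13 controls, 6.22 and 9.45 in treated against 3.30 and 4.15 in control MV4-11, and 9.70 and 10.4 in treated against 7.44 and 9.95 in control OCI-AML3. At the downstream one (base 89332529) it had a peak in all 12 libraries.

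**Figure D2:**
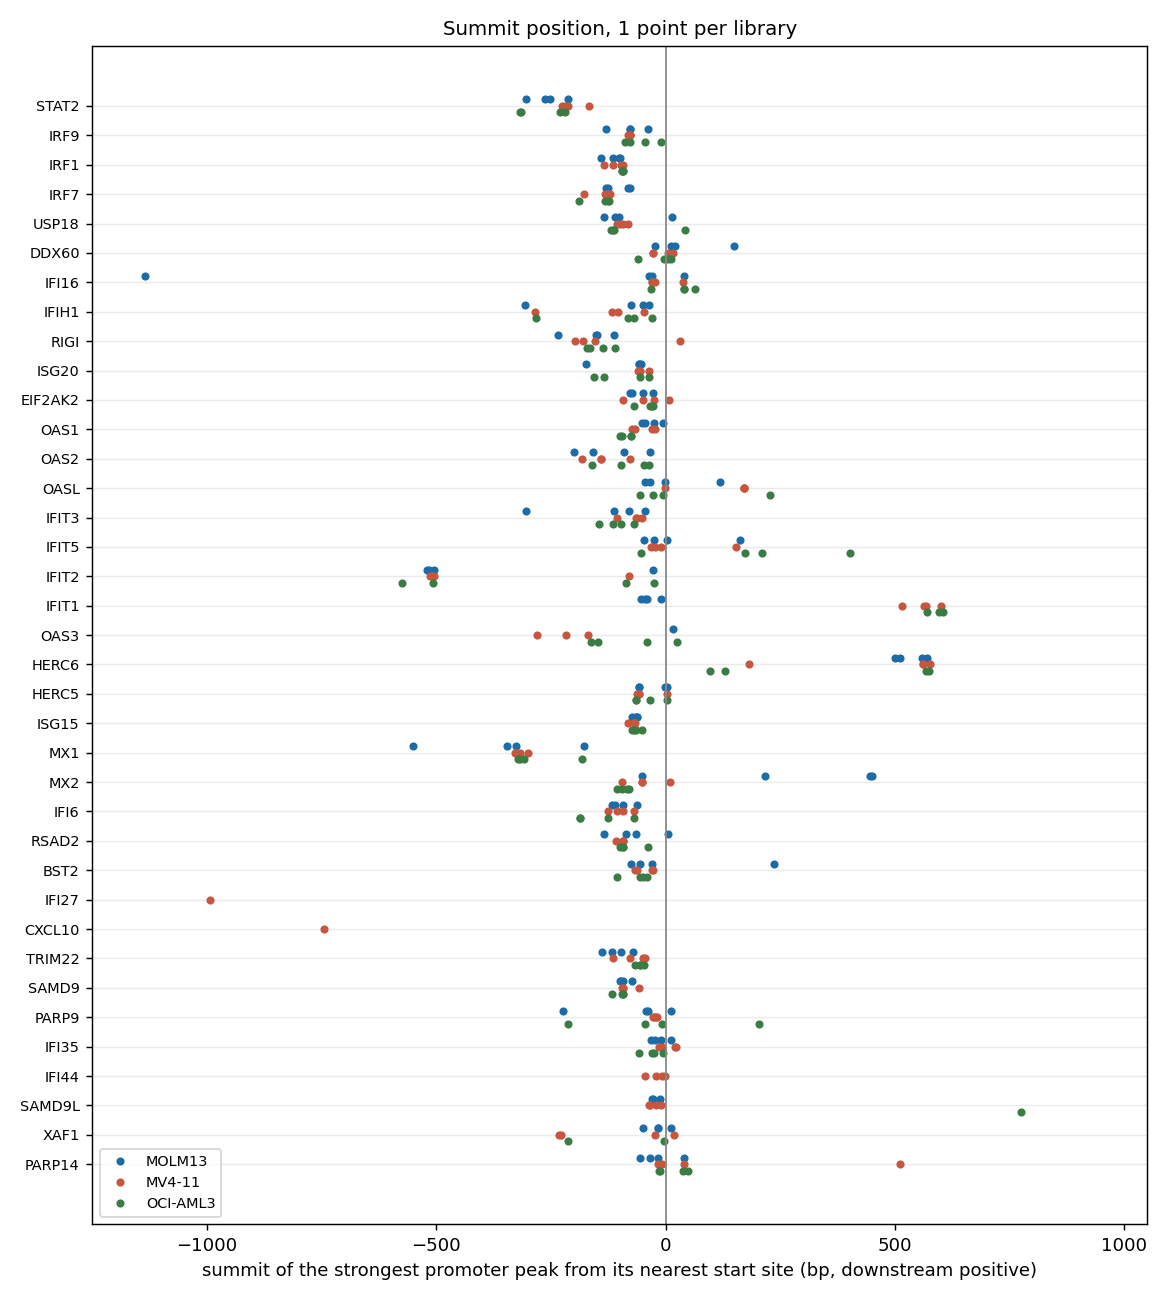
Distance of the strongest promoter summit from its nearest start site (bp, downstream positive), 1 point per library coloured by line, for the 37 genes with a promoter peak. Most points lie near 0; the IFIT1 points of MOLM13 lie near the start site and those of the other lines 515 to 604 bp downstream.

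The comparison of VTP50469 with control asked whether these promoters opened or closed within 16 h. No promoter of the 39 genes was lost (called in both controls and neither treated library of a line) or gained (the reverse) in any line. Over all promoters called in a line, 0.685%, 0.819% and 1.35% were lost and 1.29%, 0.548% and 0.534% were gained in MOLM13, MV4-11 and OCI-AML3. For strength, folds were ranked within each library, turned into normal scores and compared with limma (moderated test, two-sided, Benjamini-Hochberg adjustment over all promoters called in every library of the fit). In MOLM13 none of 32 genes passed an adjusted p of 0.05, where 0.00678% of 14757 promoters were higher and 0.0% lower. None of 34 passed in MV4-11, none of 31 in OCI-AML3 and none of 30 in the mean of the 3 lines, where 0.0% of promoters passed in either direction. In simulated data with the spread of these libraries, shifts of 1 normal-score unit within a line were not recovered, as given below. None passing within a line therefore does not show that the promoters stayed unchanged. At an unadjusted p under 0.05, 3 genes were higher and 1 lower in MOLM13 (2.61% and 2.45% of all promoters). In MV4-11 4 were higher and 3 lower (2.91% and 2.99%), in OCI-AML3 2 higher and 0 lower (2.7% and 2.5%), and in the mean of the lines 2 higher and 0 lower (3.19% and 3.01%). The median shift of the genes was 0.07 in MOLM13, −0.08 in MV4-11, 0.14 in OCI-AML3 and 0.07 in the mean, in normal-score units. That of MV4-11 was 0.04 with log2 summit reads and 0.08 without MV4-11 control 2, so its sign was not stable.

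**Figure D3:**
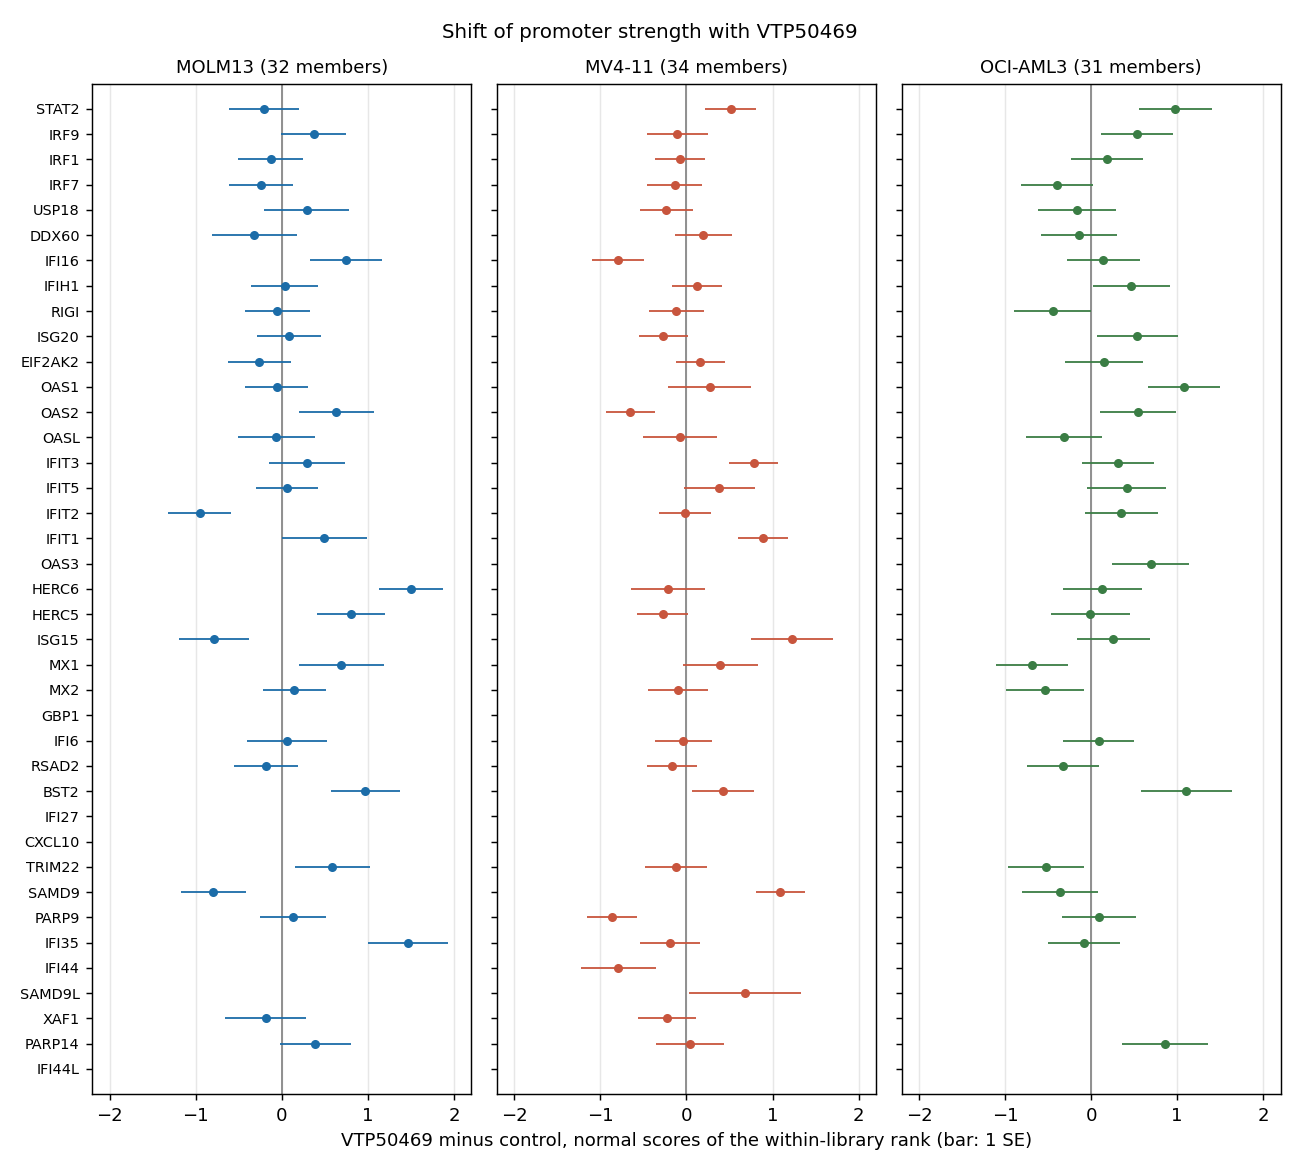
Shift of promoter strength, VTP50469 minus control, in normal scores of the within-library rank for each gene called in all 4 libraries of a line (point: limma estimate, bar: 1 SE). The points scatter on both sides of 0 in each line, with medians of 0.07, −0.08 and 0.14, and no gene passed an adjusted p of 0.05.

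The 3 genes with the smallest p were not the same in the 3 lines. In MOLM13 they were HERC6, IFI35 and IFIT2. HERC6 had folds of 15.9 and 16.2 in treated and 9.53 and 10.2 in control MOLM13 (shift 1.495, SE 0.37, limma adjusted p = 0.919). IFI35, an interferon-induced leucine zipper protein, had 15.9 and 12.3 in treated and 8.71 and 7.81 in control cells (1.47, SE 0.47, adjusted p = 0.951), and its shift was 0.75 without treated MOLM13 1 and 2.15 without treated MOLM13 2. IFIT2 had 5.46 and 6.69 in treated and 8.77 and 8.62 in control cells (−0.95, SE 0.37, adjusted p = 0.951). The treated and control values of these genes did not overlap, which 16.6% of all promoters showed with the treated ranks above and 16.9% with them below. In MV4-11 SAMD9 had 20.3 and 19.3 in treated and 15.2 and 14.5 in control cells (1.09, SE 0.29, adjusted p = 0.823). IFIT1 had 10.2 and 10.1 against 6.01 and 7.16 in the controls (0.89, SE 0.29), and PARP9 had 11.1 and 10.6 against 14.5 and 13.4 (−0.87, SE 0.29), both with an adjusted p of 0.823 in limma. The IFIT1 values of MV4-11 are those of the peak downstream of its start site, described above. In OCI-AML3 OAS1 had 10.7 and 11.3 in treated and 7.94 and 8.07 in control cells (1.08, SE 0.42, adjusted p = 0.862). STAT2 had 16.0 and 17.8 against 13.8 and 14.9 (0.98, SE 0.42, adjusted p = 0.925).

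BST2, the membrane tether tetherin that holds budding virus at the cell surface, had the smallest p in the mean of the 3 lines. Its folds were 10.1 and 8.59 in treated and 5.16 and 6.85 in control MOLM13, 11.0 and 14.5 in treated and 10.9 and 10.4 in control MV4-11, and 13.7 and 7.59 in treated and 7.23 and 8.11 in control OCI-AML3. The treated values lay above the controls in MOLM13 and MV4-11 and overlapped them in OCI-AML3. The ranks within the libraries, on which the tests rest, did not overlap in MOLM13 and OCI-AML3 and overlapped in MV4-11. Its mean shift was 0.89 (SE 0.30), positive in each of the 3 lines, and did not pass (limma adjusted p = 0.698). It was 0.57 without treated OCI-AML3 1, the lowest with 1 library left out, and 1.19 without treated OCI-AML3 2, the highest. In OCI-AML3 its shift was 1.11, and without the same libraries 0.20 and 1.97. The BST2 promoter also serves MVB12A and the lncRNA BISPR, which start within 1 kb, and the lists do not separate them. IFIT3 followed in the mean of the lines with a shift of 0.54 (SE 0.24, limma adjusted p = 0.792, and 0.35 to 0.72 with 1 library left out). STAT2 had 0.43 (SE 0.22, limma adjusted p = 0.82). The IFIT3 value takes the stronger of 2 start sites in each library. At the downstream one, called in all 12, treated OCI-AML3 (7.58 and 7.54) lay below its controls (9.34 and 7.95). Treated MV4-11 had 9.73 and 6.32 there against 6.04 and 6.98, and treated MOLM13 5.32 and 8.92 against 5.05 and 6.79.

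Counted over the genes, treated ranks above or below both controls were as follows. In MOLM13 5 of 32 genes lay above (BST2, HERC5, HERC6, IFI16, IFI35) and 3 below (IFIT2, ISG15, SAMD9), against 16.6% and 16.9% of all promoters. In MV4-11 6 of 34 lay above (EIF2AK2, IFIT1, IFIT3, ISG15, SAMD9, STAT2) and 6 below (HERC5, IFI16, IFI44, ISG20, OAS2, PARP9), where the shares over all promoters were 17.9% and 16.7%. In OCI-AML3 9 of 31 lay above (BST2, IFIT2, IFIT3, IRF1, IRF9, OAS1, OAS2, OAS3, STAT2) and 3 below (IRF7, MX1, RSAD2), where they were 17.4% and 16.8%. IFIT3 is ranked here by the stronger of its 2 start sites. Its treated folds at the downstream site lay below both controls in OCI-AML3 and overlapped them in MV4-11.

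Between the lines, a few of these promoters passed a test of strength over treated and control libraries, and none passed in control libraries alone. The comparison used the mean of the treated and control libraries of a line, with 30 genes among 13276 promoters, in a limma fit of the 6 groups. MOLM13 was lower than MV4-11 at 2 genes, SAMD9 and OAS2, and higher at none, where 1.05% of all promoters were lower and 0.339% higher. MOLM13 was lower than OCI-AML3 at 2, IFIT3 and OAS2, and higher at none (2.6% and 2.24%). MV4-11 was higher than OCI-AML3 at 2, SAMD9 and OAS1, and lower at 2, IRF1 and IFIT3 (4.67% and 3.72%). The higher calls of that pair were lost on other scales, with 0 higher and 7 lower by log2 summit reads and 0 higher and 2 lower by −log10 q. At an unadjusted p under 0.05, 9 of 30 were lower in MOLM13 than in MV4-11 (7.74% of all promoters) and 0 higher (6.8%). For MOLM13 minus OCI-AML3 6 were lower and 2 higher (10.8% and 10.7%), and for MV4-11 minus OCI-AML3 4 were lower and 6 higher (12.6% and 12.4%), a balance that turned to 9 lower and 2 higher by log2 summit reads and 8 lower and 1 higher by −log10 q. The median difference of the genes was −0.32 for MOLM13 minus MV4-11, −0.10 for MOLM13 minus OCI-AML3 and 0.14 for MV4-11 minus OCI-AML3, the last being −0.06 by log2 summit reads and −0.05 by −log10 q.

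SAMD9, a cytoplasmic protein that restricts poxviruses, differed most. Its folds in MOLM13 were 8.59 and 11.5 in treated and 11.3 and 12.9 in control cells. In MV4-11 they were 20.3 and 19.3 in treated and 15.2 and 14.5 in control cells, and in OCI-AML3 6.86 and 8.97 in treated and 8.40 and 11.1 in control cells. All 4 MV4-11 values were above every value of the other lines. MV4-11 minus OCI-AML3 was 1.86 (SE 0.27, limma adjusted p = 0.00109), and it passed whichever of the 12 libraries was left out (adjusted p = 0.00161 to 0.00714). In control libraries alone it was 1.105 (adjusted p = 0.146). MOLM13 minus MV4-11 was −1.36 (SE 0.27, adjusted p = 0.0185), and in control libraries alone −0.37 (adjusted p = 0.772). It missed the threshold without either treated MV4-11 library (0.0646, 0.0602), MV4-11 control 1 (0.0791), treated MOLM13 1 (0.0871) or MOLM13 control 1 (0.0677). On the scale of recovered summit reads MV4-11 minus OCI-AML3 was 0.21 (adjusted p = 0.338), and by −log10 q 0.71 (adjusted p = 0.0613), while MOLM13 minus MV4-11 was −0.38 (0.0919) and −0.60 (0.175).

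OAS2 was lower in MOLM13 than in both other lines, and OAS1 was higher in MV4-11 than in OCI-AML3. OAS2 had 7.79 and 9.24 in treated and 4.88 and 8.08 in control MOLM13, against 12.4 and 11.3 in treated and 13.7 and 14.1 in control MV4-11, which did not overlap. In OCI-AML3 it had 9.78 and 12.6 in treated and 9.85 and 10.0 in control cells. MOLM13 minus MV4-11 was −1.35 (SE 0.30, limma adjusted p = 0.0333) and passed in 5 of the 12 fits that left out 1 library. It did not without MOLM13 control 1 (0.151), treated MOLM13 1 (0.123) or 2 (0.0699), or any 1 of the 4 MV4-11 libraries (0.0977 to 0.109). MOLM13 minus OCI-AML3 was −1.23 (SE 0.30, adjusted p = 0.0269) and passed in 7 of 12. It did not without MOLM13 control 1 (0.113), treated MOLM13 1 (0.0891) or 2 (0.0573), OCI-AML3 control 1 (0.0777) or treated OCI-AML3 2 (0.093). OAS1 had 10.0 and 10.0 in treated and 10.0 and 9.25 in control MOLM13, 19.4 and 12.6 in treated and 14.5 and 14.3 in control MV4-11, against 10.7 and 11.3 in treated and 7.94 and 8.07 in control OCI-AML3. MV4-11 minus OCI-AML3 was 1.07 (SE 0.32, adjusted p = 0.0482) and passed in 1 of 12, that without treated MV4-11 2 (0.013). The other 11 gave 0.0532 to 0.213, the highest without treated MV4-11 1, the library with 19.4. For MOLM13 minus MV4-11 OAS1 had −1.16 (adjusted p = 0.0909). OASL (−1.18, adjusted p = 0.127) and RSAD2 (−0.69, adjusted p = 0.202) followed in that comparison.

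IFIT3 ranked highest in OCI-AML3 (median percentile 48.6), with 7.67 for MOLM13 and 16.3 for MV4-11. Its folds were 5.32 and 8.92 in treated and 5.05 and 6.79 in control MOLM13, and 9.73 and 9.45 in treated and 6.04 and 6.98 in control MV4-11. In OCI-AML3 they were 9.70 and 10.4 in treated and 9.34 and 9.95 in control cells. These peaks lie at different start sites, at the downstream one in the 4 MOLM13 libraries and at the upstream one in 3 of the 4 OCI-AML3 libraries. At the downstream site OCI-AML3 had 7.58 and 7.54 in treated and 9.34 and 7.95 in control cells, which overlapped the MOLM13 values. MOLM13 minus OCI-AML3 was −1.37 (SE 0.29, limma adjusted p = 0.0133) and passed in 10 of the 12 fits with 1 library left out, but not without MOLM13 control 1 (0.0577) or treated MOLM13 1 (0.0654). MV4-11 minus OCI-AML3 was −1.11 (SE 0.29, adjusted p = 0.0284) and passed in 5 of 12, but not without any 1 of the 4 MV4-11 libraries (0.0621 to 0.0902), OCI-AML3 control 1 (0.0731) or 2 (0.051) or treated OCI-AML3 2 (0.072). With the 5′ end of the gene as its only start site, IFIT3 was called in 9 libraries and had no place in these tests. IRF1 had folds of 13.01 and 11.4 in treated and 11.9 and 12.3 in control MV4-11, against 13.03 and 13.9 in treated and 12.9 and 14.3 in control OCI-AML3. These folds overlapped, and its rank was lower in MV4-11 (−0.98, SE 0.25, adjusted p = 0.0249), with 6 of 12 fits past the threshold. It missed it without any 1 of the 4 MV4-11 libraries (0.0526 to 0.105), OCI-AML3 control 1 (0.0627) or treated OCI-AML3 2 (0.0641). HERC5 (−1.05, adjusted p = 0.0514), IRF9 (0.87, adjusted p = 0.0758) and IFI16 (−0.82, adjusted p = 0.0938) came next for MOLM13 minus OCI-AML3, and MX1 (0.98, adjusted p = 0.101) for MV4-11 minus OCI-AML3.

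**Figure D4:**
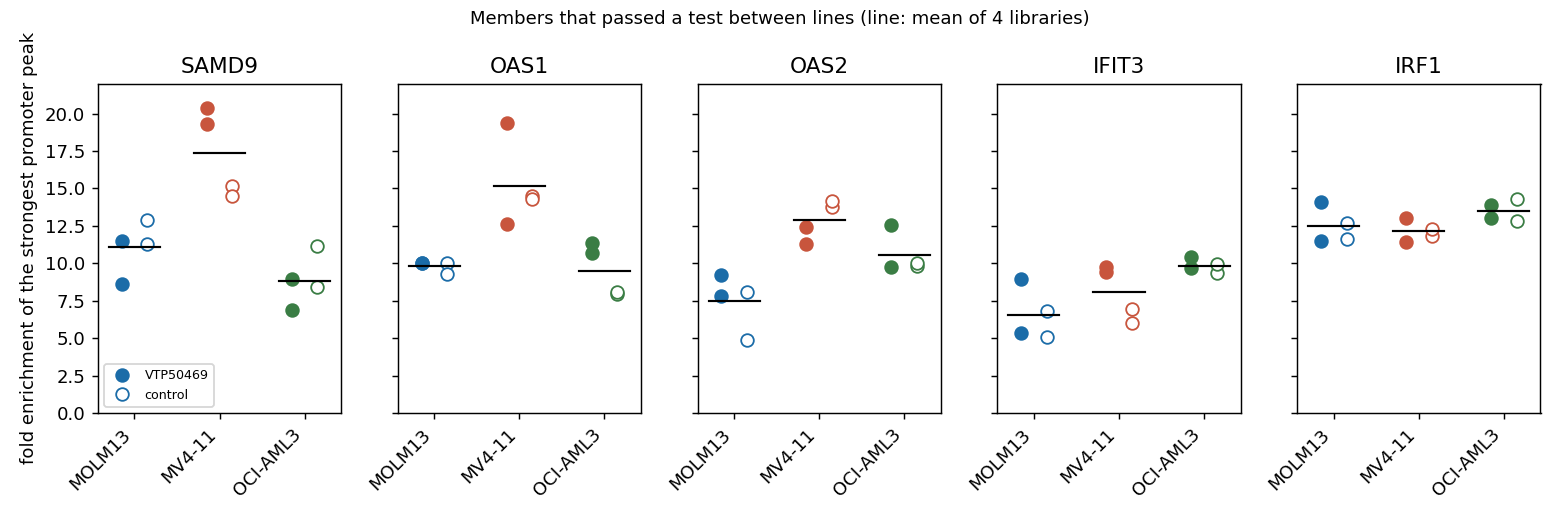
Fold enrichment of the strongest promoter peak in each library for the 5 genes that passed a test between lines (filled: VTP50469, open: control, black line: mean of the 4 libraries of a line). The 4 MV4-11 values of SAMD9 lie between 14.5 and 20.3, above all values of the other lines, whereas the IRF1 values of MV4-11 and OCI-AML3 overlap.

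Away from the promoters, the loci held regions that differed between lines in number. A library had 73 to 137 peaks in the 39 loci, of which 42 to 54 were at the promoters. MV4-11 had 69 and 83 peaks elsewhere in the loci in treated and 77 and 73 in control cells, MOLM13 47 and 49 in treated and 37 and 46 in control cells, and OCI-AML3 28 and 28 in treated and 30 and 37 in control cells. Set against every 10000 peaks of a library, they were 5.52 to 6.14 in MV4-11, 4.66 to 4.99 in MOLM13 and 3.63 to 4.26 in OCI-AML3, ranges that did not overlap. With the promoter peaks included, the ranges overlapped: 9.23 to 10.37 in MV4-11, 9.22 to 10.33 in MOLM13 and 8.36 to 11.07 in OCI-AML3. The MV4-11 libraries also held the most peaks, and the part of peak number in the order of the peaks outside promoters was not tested. The same rate was not computed for the loci of all genes. Peaks of all libraries merged into 224 regions in these loci, 40 of them called in all 12 libraries, of which 30 were at promoters.

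**Figure D5:**
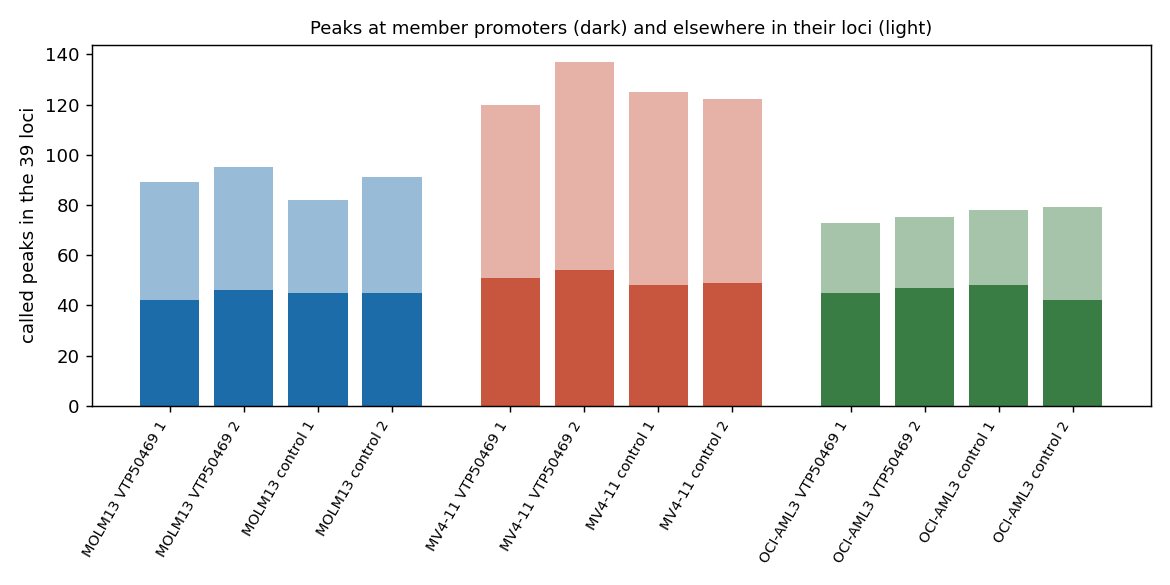
Number of called peaks in the 39 loci in each library, at the promoters (dark) and in the rest of the gene bodies extended by 5 kb (light), by line with VTP50469 left of control. Promoter peaks number 42 to 54 in every library, and the other peaks 69 to 83 in MV4-11 against 28 to 49 in the other lines.

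Regions called in all 4 MV4-11 libraries and in no library of the other lines numbered 7 in these loci, and there were none for MOLM13 or OCI-AML3 (2.01%, 0.124% and 0.245% of all regions). They were the IFI44 promoter (chr1:78649701-78649850), a region in the IFI44L gene body (chr1:78645797-78645965), a flank of CXCL10 (chr4:76019914-76020228) and sites in the bodies of OAS1 (chr12:112925061-112925363), OASL (chr12:121033814-121034208), MX2 (chr21:41367758-41368103) and MX1 (chr21:41437754-41438007). The MX1 site reached a −log10 q of 16.3 (2.95 to 16.3 over the 4 libraries). With 68670 peaks in every library the number was 1, a site in the IFI27 gene body (chr14:94115032-94115604) that is not among the 7, where 1.22% of all regions were restricted to MV4-11. The count therefore changed with the number of peaks taken per library.

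Within the lines, 17 regions of these loci were lost or gained with VTP50469. MOLM13 had 1 lost and 5 gained of 142 regions (1.3% and 3.22% of all regions of the line), MV4-11 3 lost and 2 gained of 175 (2.75% and 1.92%) and OCI-AML3 2 lost and 4 gained of 113 (2.57% and 1.32%). Of the gained regions, 3 were at promoters: the IFIT1 site given above in MOLM13, and in OCI-AML3 a site at BST2 (chr19:17405978-17406204, −log10 q of 2.97 and 3.01) and a site at IFIH1 (chr2:162318078-162318200, 3.95 and 3.20), 2 promoters that had a called peak in all 12 libraries. The other gained regions were in the gene bodies of RSAD2, PARP9 and OASL and a flank of XAF1 in MOLM13, in TRIM22 and a flank of MX1 in MV4-11, and in HERC6 and a flank of IFI16 in OCI-AML3. The highest −log10 q among them was at the flank of IFI16, with 5.63 and 9.45 (chr1:158998796-158998970). The lost regions were in ISG20 in MOLM13, in RSAD2, SAMD9L and MX2 in MV4-11, and in RIGI and a flank of ISG20 in OCI-AML3. None of the 17 was at the same place in more than 1 line.

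The other genes of the interferon pathway, 37 by a fixed list, had a promoter peak in all 12 libraries in 27 cases and in none in 4 (54.4% and 21.2% of protein-coding genes). The receptor chains IFNAR1, IFNAR2, IFNGR1 and IFNGR2, the kinases JAK1, JAK2 and TYK2, and STAT3 were all called throughout. TYK2 and STAT3 had median folds of 16.1 and 15.7. IFNLR1, the receptor chain for interferon lambda, and the ligands IFNL1, IFNG and IFNK were called in none. IFNB1, which encodes interferon beta, was called in 8 libraries, 4 of them MV4-11. TLR9, a sensor of unmethylated DNA, was called in the 8 MOLM13 and MV4-11 libraries (median 8.09) and in no OCI-AML3 library. None of these genes passed a treatment test in limma. At an unadjusted p under 0.05 there were 0 in MOLM13, where 2.61% of all promoters were higher and 2.45% lower. There were 2 in MV4-11, TYK2 higher and IFNAR1 lower (2.91% and 2.99% of all promoters). There were 2 in OCI-AML3 (2.7% and 2.5%) and 2 in the mean of the lines (3.19% and 3.01%), TYK2 higher and IRF8 lower in both. The mean shift was 1.05 for TYK2 (limma adjusted p = 0.470) and −0.82 for IRF8 (adjusted p = 0.698), with the same sign in each line. The tests between lines covered the 27 genes called in all 12 libraries. ADAR, which edits double-stranded RNA, was lower in MOLM13 than in MV4-11 (−1.49, SE 0.32, limma adjusted p = 0.0266), where 1.05% of all promoters were lower. MV4-11 was higher than OCI-AML3 at IFNAR1 (0.95, SE 0.27, adjusted p = 0.0394) and lower at JAK2 (−0.90, SE 0.25, adjusted p = 0.039). The shares of all promoters were 4.67% higher and 3.72% lower. Alternatives are given for the 39 genes alone, so the stability of these calls was not examined.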

How the data were processed

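Bulk ATAC-seq of 12 libraries was analysed from the peak lists that the authors deposited. The submitters' processing notes list MACS2 2.1.0, Bowtie 1.1.2, bcl2fastq 2.17, deepTools and Trimmomatic 0.33, with hg38 as the build. The study's methods name another aligner. Peaks were called in each library separately. Read shift, duplicate handling and caller options are not given in the sources used here. Of the deposited columns, the score is the whole part of a multiple of the −log10 q. Fold enrichment at the summit was deposited as a linear ratio, with the −log10 p-value and −log10 q-value of the same summit. The deposited summit offset is in bp. No value had been normalised between libraries, so ranks within a library were compared.

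Summit reads were recovered as the whole number that gave both the fold and the Poisson p within 0.001, which held for over 99.99% of peaks. Autosomes and X were used. Gene positions and start sites came from RefSeq on GRCh38.p14, with strand from RefSeq or, by symbol, from GENCODE. A peak belonged to a promoter by an overlap of at least 1 bp. Tests were limma 3.58.1 in R 4.3.3, tried first on simulated data. Python 3.11.15, pandas 2.3.3 and bedtools 2.31.1 were used otherwise. The depth of sequencing is unknown from peak lists, and intervals resting on it were left out. Genes were named if called in fewer than 12 libraries, among the 5 highest or lowest median ranks, among the 3 smallest p of a treatment or 5 of a line comparison, or if they held a lost or gained region or the ISRE core. Members, lists and tests were chosen with earlier results of these data known. Alternatives were the ranked −log10 q, log2 summit reads, a 500 bp window, a −log10 q of at least 5, summit position, uncalled promoters at the lowest rank, control libraries alone, a replicate block and leaving out each library. Equal peak numbers and 1 start site per gene were added after seeing the data.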

Additional observations from a re-analysis of the deposited data

Results flagged for a closer look

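At 6 genes both treated ranks lay above both controls in 1 line and below both controls in another, so the shift differed in direction. Counted by pair of lines, 2 lay above in MOLM13 and below in MV4-11 (2.23% of promoters) and 2 the reverse (2.76%). OCI-AML3 lay above and MOLM13 below at 1 (3.09%), and OCI-AML3 above and MV4-11 below at 1 (2.83%). The reverse of these last moves occurred at 0 genes (2.65% and 2.88%). Each share covers 1 pair and direction, whereas 6 is the total over all of them, so these cannot be set side by side. The difference of the shifts was tested in the fit of all 12 libraries (limma, Benjamini-Hochberg over 13276 promoters), and none of the 6 passed. The 6 were chosen by the same ranks that the test uses, so the values are a description and no independent evidence of a difference. For MOLM13 minus MV4-11 it was 1.73 for IFI16 (SE 0.558, adjusted p = 0.999) and 1.18 for HERC5 (SE 0.594, adjusted p = 0.999), whose treated ranks lay above in MOLM13 and below in MV4-11. The IFI16 fold of treated MOLM13 2 (14.3) came from another start site than in the other 11 libraries, with its summit outside the 1 kb window. At the common site the MOLM13 folds were 9.30 and 8.83 in treated and 8.34 and 8.17 in control cells. It was −2.16 for ISG15 (SE 0.684, adjusted p = 0.999) and −1.98 for SAMD9 (SE 0.541, adjusted p = 0.999), with the reverse pattern. The ISG15 folds were 10.1 and 9.30 in treated and 12.9 and 10.7 in control MOLM13, and 19.2 and 13.4 in treated and 9.25 and 12.5 in control MV4-11. For MOLM13 minus OCI-AML3 it was −1.43 for IFIT2 (SE 0.509, adjusted p = 0.681), and for MV4-11 minus OCI-AML3 −1.30 for OAS2 (SE 0.605, adjusted p = 0.93).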

How the results depend on the processing

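No gene of the 39 passed a treatment test under any alternative, and the 12 treatment and 15 line values of single genes recomputed under the alternatives kept their sign. The counts of genes that passed between lines (2 for MOLM13 minus MV4-11, 2 for MOLM13 minus OCI-AML3, 4 for MV4-11 minus OCI-AML3) changed by over 1.5 times as follows, and the cause was not tested. With control libraries only they were 0, 0 and 0. With log2 summit reads they were 7 (1 higher, 6 lower), 9 (all lower) and 7 (all lower, where 2 had been higher). Keeping peaks of −log10 q 5 or more gave 1 for the first pair and 1 for the second. With −log10 q ranked MOLM13 minus OCI-AML3 gave 4 and MV4-11 minus OCI-AML3 gave 2 (both lower), and with uncalled promoters at the lowest rank MOLM13 minus OCI-AML3 gave 4. Other alternatives gave 2 or 3 for the MOLM13 pairs and 3 to 5 for MV4-11 minus OCI-AML3. With 1 library left out, where the lone library of a group is assumed to vary like the others, they ranged from 0 to 2, from 0 to 3 and from 1 to 3, the lost and gained promoters from 0 to 2, the lost and gained regions from 27 to 41 (fewer libraries are then asked to agree), and the genes called in all libraries from 30 to 31. The 7 regions called in MV4-11 alone became 1 with equal peak numbers and 2 when only peaks of −log10 q 5 or more were kept. Same-numbered treated and control libraries of a line deviated together with correlations of 0.02, 0.046 and 0.0025. These show no large shared deviation, but cannot settle whether same-numbered libraries were prepared together. A replicate block left 0 of the genes past the threshold in each line and in the mean, and the promoters that passed numbered 15 higher and 6 lower for MOLM13, 2 higher and 1 lower for MV4-11, and 2 higher and 0 lower for OCI-AML3, against 1, 0 and 0 without the block. For single named genes, the alternatives that kept every library left the outcome, passed or not passed, unchanged in 208 cases. These cases include values that never passed. A pass was lost in 18 cases and brought in 13. Passes lost with a library left out are given above by gene. With 2 libraries a group and few reads per summit, shifts within a line as large as those printed may go undetected.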
